A study of Mus musculus with 24 samples.

Results

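The genes described here encode the proteins of the cytosolic ribosome in mouse heart muscle cells. They were taken from the deposited count table by name: symbols starting with Rpl or Rps, without the Rps6k kinase genes and without names holding -ps, that reached 10 or more counts in at least 6 of the 24 libraries. This gave 77 of the 23337 genes of the table. They comprise 29 small subunit genes, 41 large subunit genes including Rpl3, 6 genes for paralogs (Rpl3l, Rpl7l1, Rpl22l1, Rpl36al, Rps27l and Rps4y2) and Rps19bp1, which matches by name but is not a ribosomal protein. Rpl3 lies close to Mrtfa, one of the genes deleted in the study, and is treated apart from the other 76. A further 9 genes matched by name and missed the count minimum: Rpl26 and Rpl10l had 0 counts in all, Rpl39l had 9, and Rps27, Rps12, Rpl30, Rpl11, Rpl24 and Rpl28 had between 46 and 158 over the 24 libraries together.

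The study measured polyadenylated RNA in cardiomyocytes of 4-week-old mice that had been given an adeno-associated virus (AAV) on postnatal day 1, with 6 libraries in each of 4 groups. Ctrl mice were Rosa-Cas9/Cas9 and received AAV-Cre, and MKO mice had the same genotype and received AAV-Myocd-sgRNA, a virus carrying guides against Myocd. DKO mice were Mrfta-/-; Mrtfb-F/F; Rosa-Cas9/Cas9, as the labels spell it, and received AAV-Cre, and TKO mice had the DKO genotype and received AAV-Myocd-sgRNA. Every group therefore carries the Cas9 allele and a virus, the Mrtfa allele is null in the whole DKO and TKO animal, and no source used here gives the promoters of the viral genes. The labels do not say whether the 6 libraries of a group are separate animals, so p-values measure the spread between these libraries.

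Each cytosolic ribosome holds a small subunit, which reads the mRNA, and a large subunit, which joins amino acids, and its proteins are needed in near-equal numbers. In vertebrates many of their mRNAs begin with a C followed by a run of pyrimidines, the 5′ terminal oligopyrimidine tract, through which mTORC1 and the RNA-binding protein LARP1 control their translation. Processed pseudogenes, which are intron-free copies of mRNAs, are more abundant for these genes than for most others. Myocardin (Myocd), MRTF-A and MRTF-B are coactivators of serum response factor, which binds CArG boxes and drives contractile and cytoskeletal genes.

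A minority of the gene starts showed the feature that the family is known for, at a higher share than among all genes. Promoters from RefSeq (GRCm38.p6, 250 bases before and 50 after each annotated start) matched 57 of the 77 genes. In 11 of them (19.3%) the annotated first base was a C followed by at least 4 pyrimidines, against 3.01% of all 27025 genes with a promoter. When the start was allowed to move by 5 bases either way, 27 (47.4%) held such a run, against 21.2% of all genes. Windows were made for all matched promoters except those of a single chromosome, so runs there are not shown. The windows below show 8 of the 11, with the longest runs among the windows made, and Rpl3l, the muscle paralog of Rpl3, in which none was found. Each has 15 bases before the start and 15 from the start on, so the first transcribed base is base 16, and capitals mark the pyrimidine run.
Rpl15, chr14:18270972-18271001, minus strand: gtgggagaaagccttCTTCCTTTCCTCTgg
Rpl35, chr2:39005117-39005146, minus strand: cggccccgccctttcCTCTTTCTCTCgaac
Rps10, chr17:27635230-27635259, minus strand: gcgccgcgcacgcccCTTCCTTTCCagcct
Rps6, chr4:86857353-86857382, minus strand: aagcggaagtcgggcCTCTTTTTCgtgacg
Rps18, chr17:33955651-33955680, minus strand: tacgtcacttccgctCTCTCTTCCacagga
Rps15a, chr7:118116133-118116162, minus strand: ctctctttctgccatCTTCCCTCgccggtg
Rpl35a, chr16:33056467-33056496, plus strand: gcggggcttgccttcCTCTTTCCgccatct
Rpl38, chr11:114668565-114668594, plus strand: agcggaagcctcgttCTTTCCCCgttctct
Rpl3l, chr17:24727811-24727840, plus strand: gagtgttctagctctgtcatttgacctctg
The run was 13 bases long in Rpl15 and 8 in Rpl38. Among short motifs searched on both strands of the whole promoter, CCGGAAG, a form of the ETS factor motif, was in 23 of the 57 (40.4%) and in 9.93% of all genes. GGGCGG, the Sp1 box, was in 40 (70.2%) against 38.2%, and AAGATGG, a form of the YY1 motif, was in 9 (15.8%) against 7.28%. TATAAA was in 7 (12.3%) against 15.7%. A CArG box, the motif bound by serum response factor, was found in 1 of the 57 (1.75%, Rpl10a) and in 1.81% of all genes. Rpl3 had no entry among these promoters, so its start and motifs were not searched. A match of CCGGAAG can share its last 3 bases with one of AAGATGG, and the shares describe letters, not binding.

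The family took a small share of the counts in these libraries. Its 77 genes took 0.148% ± 0.0202 (SD, n = 6) of all counts in Ctrl and 0.142% ± 0.0137 in MKO. The share was 0.176% ± 0.0418 in DKO (0.1604% ± 0.0196 without the library DKO 1, described below) and 0.166% ± 0.0204 in TKO. The 76 genes tested for mitochondrial ribosomal proteins took 0.495% over all libraries. Per length, the median level in Ctrl was 12.7 CPM per kb (CPM is the count scaled to the effective library size, here divided by the exonic length in kilobases) for the 77 genes and 6.99 for the 12281 genes tested, and 50 of the 77 lay above that. Small subunit genes had a median of 16.1 CPM per kb, large subunit genes without Rpl3 8.22, the paralogs 44.9 and the mitochondrial ribosomal protein genes 52.4. These sets differ in how much of their sequence has copies elsewhere, as given below. The shares and levels therefore describe counts and do not rank the sets by amount of mRNA.

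Levels per length differed 171-fold between the highest and the lowest gene. The highest in Ctrl were Rpl4 with 116 ± 14.6 CPM per kb, Rplp0, the base of the stalk that recruits translation factors, with 106 ± 11.2, the paralog Rps27l with 93.7 ± 19.5, Rpl8 with 86.4 ± 16.2 and the stalk protein gene Rplp1 with 78.5 ± 9.17 (SD, n = 6 each). The lowest were Rpl5, whose protein carries the 5S RNA into the ribosome, with 0.678 ± 0.276, Rpl17 with 1.20 ± 0.458, Rpl21 with 1.32 ± 0.374, Rps27a, made as a fusion with ubiquitin, with 1.48 ± 0.551, and Rpl10a with 1.49 ± 0.377. Within each end, neighbours differed by less than the larger SD of the pair, apart from Rpl5 and Rpl17.

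Genes with more near-identical copies had lower levels. Each gene's GENCODE M21 transcripts were cut into words of 50 bases, and a word was unique if no other gene held it. The median gene of the family had 65.0% unique words (76 genes with a value), against 99.9% for the genes tested and 96.6% for the mitochondrial ribosomal protein genes. Of the 76, 73 shared a word with at least 1 annotated pseudogene, with a median of 8 and a maximum of 121 pseudogenes. The 13 genes sharing with 2 or fewer pseudogenes had a median level of 50.2 CPM per kb in Ctrl, the 33 sharing with 3 to 9 had 14.4, and the 30 sharing with 10 or more had 3.81. Spearman's rho across these 76 genes was -0.600 for the number of pseudogenes and 0.367 for the share of unique words, as a description of genes that share libraries. No source used here says how reads with several matches were counted. Levels of different members, or of the family and other sets of genes, therefore cannot be compared as amounts of mRNA. The part of the copies in these levels was not tested.

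**Figure D1:**
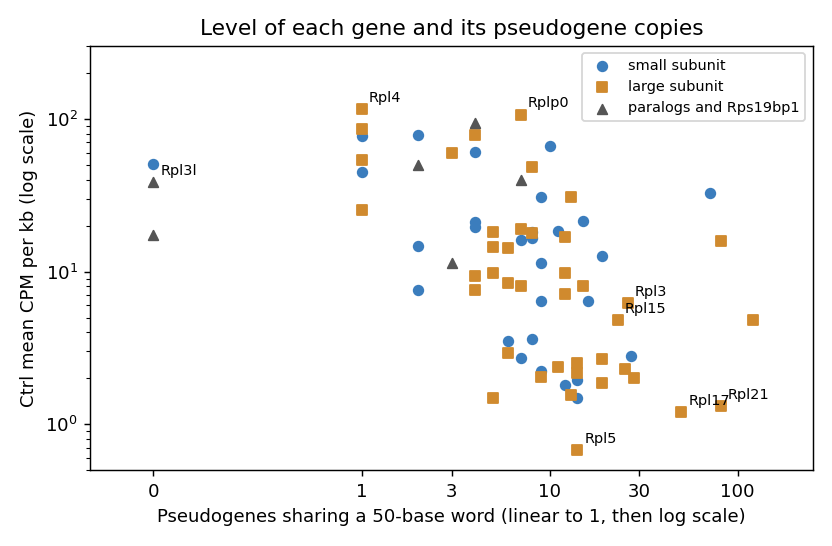
Ctrl mean level of each gene (CPM per kb, log scale, n = 6 libraries) against the number of annotated pseudogenes that share a 50-base word with it (linear to 1, then log scale), with 1 point per gene for 76 genes. Genes with 2 or fewer such pseudogenes lie between 7.58 and 116 CPM per kb, and those with 10 or more between 0.678 and 66.5.

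Count depth limits single genes. Library totals ran from 5830185 counts (DKO 1) to 17184517 counts (TKO 3), 65 of the 77 genes had at least 10 counts in all 24 libraries, and 14 had a mean count under 20. Rpl17 reached 10 counts in 8 libraries only.

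One library stood apart. In DKO 1 the genes of the family lay a median of 0.886 above their mean over the 24 libraries on the log2 scale, and the next highest library, Ctrl 3, lay 0.320 above. In the same library, 746 other genes of at most 1000 bases lay 0.895 above their means and the mitochondrial ribosomal protein genes 0.864. The median exonic length was 740 bases for the family and 2945 for all genes tested. Its share of counts was also the highest in DKO 1, at 0.253%, with the other 23 libraries at or below 0.196%. Medians, signs and calls of the family in comparisons with DKO are therefore given with and without it.

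**Figure D2:**
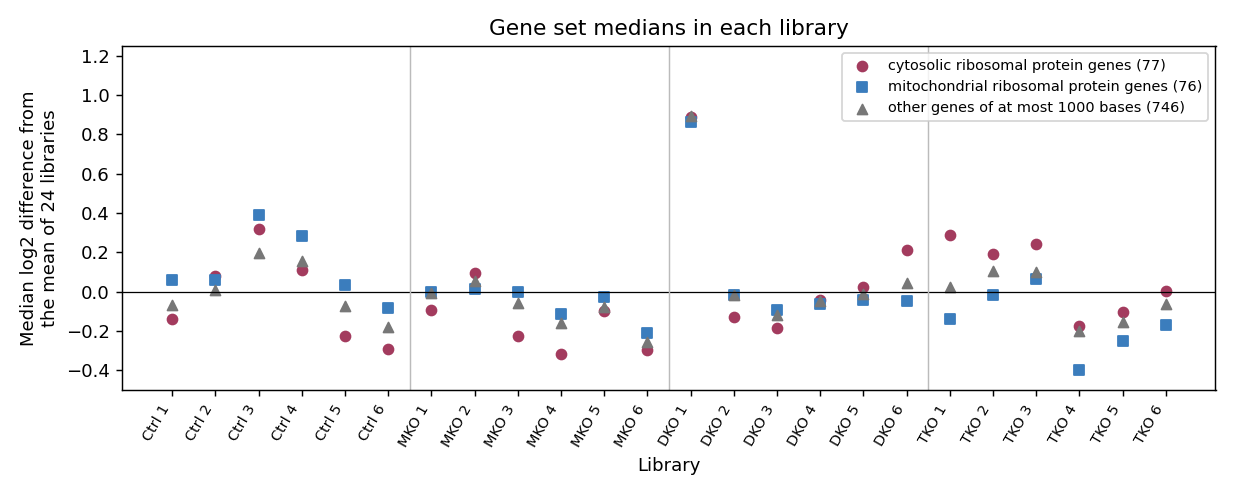
Median log2 difference from the mean over 24 libraries, for the 77 cytosolic ribosomal protein genes, 76 mitochondrial ribosomal protein genes and 746 other genes of at most 1000 bases, with 1 point per set and library. All 3 sets reach 0.864 to 0.895 in DKO 1 and stay at or below 0.392 in the other libraries.

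The targeted genes were read first as a check of the labels. Here and below, called means an adjusted p under 0.05 by edgeR, adjusted over all 12281 genes tested. Mkl1 (Mrtfa) had a lowest, median and highest level of 4.81, 7.55 and 11.3 CPM in Ctrl, 6.39, 10.3 and 11.9 in MKO, 1.40, 1.96 and 2.77 in DKO, and 1.33, 2.36 and 2.66 in TKO. It fell in DKO against Ctrl by 1.92 on the log2 scale (adjusted p = 7.56e-06, edgeR) and in TKO by 1.86 (adjusted p = 8.00e-07). Mkl2 (Mrtfb) had 44.8, 48.8 and 55.9 CPM in Ctrl, 26.6, 32.9 and 39.3 in DKO, and 27.5, 37.4 and 42.5 in TKO, with no overlap between Ctrl and either. Myocd had 153, 182 and 234 CPM in Ctrl, 120, 140 and 187 in MKO, 175, 206 and 242 in DKO, and 175, 230 and 324 in TKO. It was higher in TKO than in Ctrl by 0.40 ± 0.13 (adjusted p = 0.0437, edgeR) and than in MKO by 0.77 ± 0.13 (adjusted p = 0.000374), and MKO differed from Ctrl by -0.37 (adjusted p = 0.717). Its RNA level therefore does not mark the libraries that received the guides, and a gene count does not show edits by Cas9.

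Markers of the labelled cell type were abundant. The 10 cardiomyocyte markers summed to 121150 to 148440 CPM in Ctrl, 97250 to 117450 in DKO, 92877 to 120660 in TKO and 102240 to 125790 in MKO, so every DKO and TKO library lay below every Ctrl library. Of the 10, Myh6, Ttn and Myl3 fell in TKO against Ctrl and 0 were called in DKO. The summed CPM of 12 fibroblast markers lay in overlapping ranges: 234 to 835 in Ctrl, 296 to 845 in DKO, 459 to 766 in TKO and, with the highest value, 524 to 1270 in MKO. That of 15 endothelial markers, in the same order, was 190 to 2028, 417 to 1043, 196 to 857 and 787 to 1665. The 12 smooth muscle and pericyte markers summed to 1213 to 1664 CPM in Ctrl and 1142 to 1516 in MKO, above all values in DKO (459 to 843) and TKO (539 to 722). In that sum Acta2, smooth muscle actin, had 585 to 961 CPM in Ctrl, 116 to 256.3 in DKO, 37.2 to 183 in TKO and 411 to 757 in MKO. The sum of the other 11 markers in Ctrl overlapped with that in each other group, with 481 to 831 CPM in Ctrl, 203 to 646 in DKO, 420 to 685 in TKO and 664 to 841 in MKO. Of 11 of the 12 tested, Acta2 was the only one called in DKO against Ctrl (lower by 2.17 on the log2 scale), and 6 of the 11 lay above 0. In TKO against Ctrl, Acta2 fell by 2.76 and Cspg4, a pericyte marker, rose by 0.86, and 2 of the 11 lay above 0. Single markers of other cells were also called in TKO against MKO. Pecam1, Cdh5, Tek and Kdr (endothelial), Pdgfra and Postn (fibroblast) and Pdgfrb and Rgs5 (pericyte) were among those that fell, by 1.27 to 1.71. Fbln1, a fibroblast marker, rose by 1.55 there and by 1.89 against Ctrl, and Cspg4 rose by 0.76 in TKO against MKO. The 12 leukocyte markers summed to at most 33.6 CPM, with Ptprc, Cd52, Tyrobp and S100a8 at 0 in at least 1 library. The part of such cells in the results below was not tested, and in bulk RNA fewer cells of a type and less RNA per cell cannot be told apart.

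Rpl3 had the largest differences of the family in DKO and TKO. It encodes a protein of the large subunit that reaches toward the peptidyl transferase centre. Its lowest, median and highest levels were 4.78, 8.60 and 13.2 CPM in Ctrl, 4.84, 6.88 and 8.14 in MKO, 1.22, 2.22 and 3.20 in DKO, and 1.29, 1.54 and 1.97 in TKO. All DKO and TKO libraries lay below all Ctrl and MKO libraries. The counts behind these levels were 47 to 106 in Ctrl and 60 to 93 in MKO, and in DKO and TKO they were 15 to 32 and 17 to 25.

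By edgeR's quasi-likelihood test, Rpl3 fell by 1.98 ± 0.24 (SE) on the log2 scale in DKO against Ctrl (adjusted p = 1.95e-05) and by 2.42 ± 0.24 in TKO against Ctrl (adjusted p = 1.44e-07). It fell by 2.07 ± 0.24 in TKO against MKO (adjusted p = 1.91e-06) and by 1.63 ± 0.24 in DKO against MKO (adjusted p = 0.000348). MKO differed from Ctrl by -0.35 ± 0.22 (adjusted p = 0.786) and TKO from DKO by -0.44 ± 0.25 (adjusted p = 0.292). The difference between the TKO to DKO ratio and the MKO to Ctrl ratio, the interaction, was -0.09 ± 0.33 (adjusted p = 0.944). In the authors' deposited tables the log2 fold change of Rpl3 was -1.93 in DKO and -2.27 in TKO against Ctrl.

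Rpl3 lies at chr15:80077781-80083406 in mm10, 0.929 Mb from Mkl1. Of 31 genes tested within 1 Mb of Mkl1, Rpl3 was the only one called in DKO against Ctrl, where 0.635% of all genes were. In TKO against Ctrl 4 of the 31 were called, Rpl3 among them, where 14.1% of all genes were. Of these 4, 1 was higher and 3 were lower. Rps19bp1, at chr15:80260614-80264306 and 0.748 Mb from Mkl1, differed by 0.17 in DKO (adjusted p = 0.705) and 0.08 in TKO (adjusted p = 0.776), and Rpl8, 4.11 Mb away, by 0.26 (adjusted p = 0.671) and -0.0032 (adjusted p = 0.995). Loss of MRTFs and other sequence linked to the Mrtfa allele are carried by the same libraries and cannot be told apart. Only 32.9% of the 50-base words of Rpl3 were unique, and 26 pseudogenes shared a word with it.

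Rpl3l, the paralog of Rpl3 found in heart and skeletal muscle, had the higher level of the pair in these counts, with the level of Rpl3 made uncertain by its copies. At 100% unique words and with no pseudogene sharing a word, it had 38.7 CPM per kb in Ctrl against 6.24 for Rpl3, a ratio of 6.20. Its lowest, median and highest levels were 45.9, 66.5 and 69.5 CPM in Ctrl, 29.7, 47.9 and 61.5 in MKO, 40.9, 68.0 and 117 in DKO, and 17.5, 40.8 and 58.9 in TKO. The groups overlapped, and the value of 117 was that of DKO 1.

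Rpl3l was lower in TKO than in DKO by 0.83 ± 0.25 on the log2 scale (adjusted p = 0.0472, edgeR; 6 of 6 TKO libraries below the DKO mean). That call was lost under 22 of 33 alternative settings, DKO 1 left out included, where the difference was -0.63. Against Ctrl, TKO differed by -0.64 ± 0.25 (adjusted p = 0.0908, 6 of 6 libraries below the Ctrl mean), MKO by -0.40 ± 0.25 (adjusted p = 0.786) and DKO by 0.19 ± 0.25 (adjusted p = 0.839). The interaction was -0.43 ± 0.35 (adjusted p = 0.670). Of the counts on the pair, Rpl3l held 87.7% ± 4.24 (SD, n = 6) in Ctrl and 86.9% ± 4.62 in MKO, and 96.7% ± 1.59 in DKO and 95.3% ± 2.72 in TKO. Every DKO library (94.0% or more) lay above every Ctrl library (at most 93.5%), and TKO, from 91.1%, overlapped with Ctrl.

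**Figure D3:**
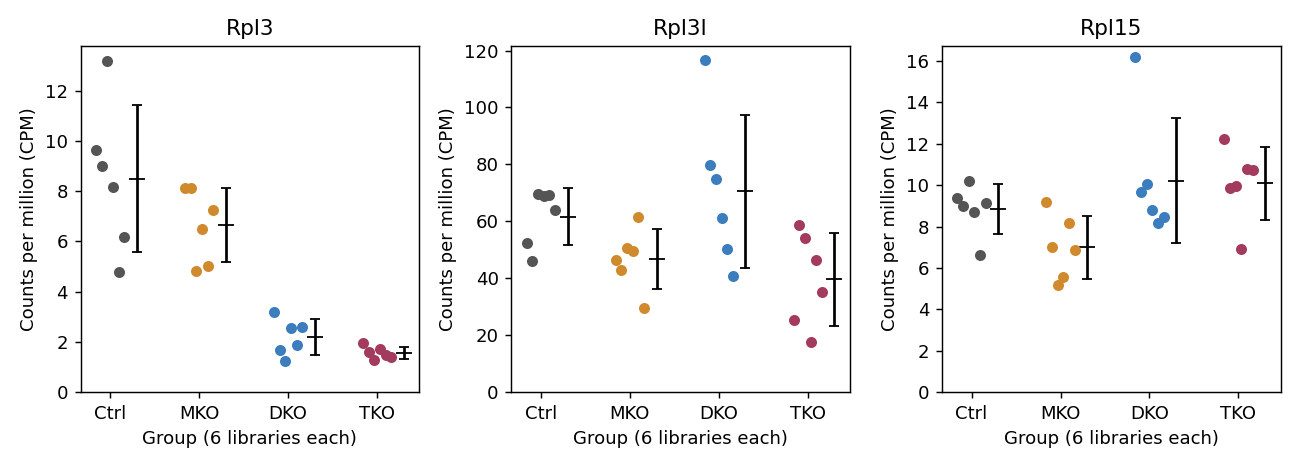
Levels of Rpl3, Rpl3l and Rpl15 in CPM, with 1 point per library and the mean ± SD of 6 libraries beside each group, on linear axes from 0. Rpl3 lies at or below 3.20 CPM in every DKO and TKO library and at or above 4.78 in every Ctrl and MKO library, while the groups overlap for Rpl3l and Rpl15.

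The other paralogs also had levels at or above those of their parents. Per length in Ctrl, Rpl36al had 17.2 times the level of Rpl36a, Rps4y2 3.68 times that of Rps4x, Rpl7l1 1.29 times that of Rpl7 and Rpl22l1 1.21 times that of Rpl22. Rpl36a and Rps4x had 14.5% and 27.8% unique words, so their levels are uncertain. RefSeq lists Rps4y2 as Rps4l, a transcribed pseudogene. None of these genes passed the test in any of the 7 comparisons. Rps27l, whose gene is a target of the p53 tumour suppressor, had 12268 counts in all against 46 for Rps27. The 9 genes that missed the count minimum, Rps27 among them, had a median of 53.8% unique words. The level of Rps27 is therefore uncertain as well, and these counts do not give a ratio of the 2 mRNAs. The lowest, median and highest levels of Rps27l were 33.2, 43.0 and 58.1 CPM in Ctrl, 28.4, 36.1 and 59.4 in MKO, 35.9, 49.5 and 93.3 in DKO, and 43.1, 57.8 and 63.6 in TKO, with a difference of 0.33 ± 0.20 between TKO and Ctrl (adjusted p = 0.303).

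Apart from Rpl3, the genes of the family were not called in any comparison with Ctrl. Against Ctrl, 0 of 76 were called in MKO, where 0% of all genes tested were, 0 in DKO, where 0.635% were, and 0 in TKO, where 14.1% were. DESeq2 also gave 0 in each. At an unadjusted p under 0.05 there was 1 gene in MKO (Rpl17), 2 in DKO (Rps24 among them) and 3 in TKO (Rps24, Rps27a and Rpl3l), against 6.20%, 10.5% and 27.0% of all genes tested. Without DKO 1 there were again 0 called in MKO and DKO and 1 in TKO (Rpl3l), where 0%, 1% and 22.7% of all genes were, and 5, 0 and 5 genes had an unadjusted p under 0.05, against 12%, 11.9% and 34.6%.

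The precision of these tests bounded most differences from Ctrl within a 2-fold change, and fewer within a 1.5-fold change. The approximate 95% interval of the log2 ratio stayed within a 2-fold change for 75 of 76 genes in MKO, 73 in DKO and 73 in TKO. It stayed within a 1.5-fold change for 40, 33 and 45. In TKO against MKO 71 genes stayed within 2-fold and 25 within 1.5-fold, and in DKO against MKO 65 and 19. The median standard error of the family was 0.201 in TKO against Ctrl, and 0.156 for all genes tested.

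In TKO against Ctrl the median log2 ratio was 0.092 over the 76 genes and -0.0088 over all genes tested. Of the 76, 56 lay above 0, and without DKO 1 the median was 0.0898 with 56 above 0. The genes share libraries and moved together. Between single libraries, the number of genes above their own mean over all libraries ran from 8 to 67 in Ctrl and from 10 to 70 in TKO. Counts of genes above or below 0, here and in the other comparisons, are therefore descriptions and not independent observations. Without both Ctrl 3 and DKO 1 the median was 0.174 with 65 above 0. Ctrl 3 had the highest level of the family in Ctrl, so leaving it out raises this ratio. With all 24 libraries, small subunit genes had a median of 0.12 (25 of 29 above 0). Large subunit genes had 0.086 (27 of 40) and the paralogs -0.016 (3 of 6). Rps24, a small subunit protein that acts in ribosomal RNA maturation, had 4.34, 5.0 and 8.08 CPM in Ctrl and 6.50, 7.02 and 10.6 in TKO. The groups overlapped, and the difference was 0.45 ± 0.21 (adjusted p = 0.168, edgeR). Without Ctrl 3 and DKO 1 the adjusted p was 0.0173 by the same test, and without DKO 1 alone Rps24 was not called. In the authors' deposited table of this comparison, 2 of the 76 genes had an adjusted p under 0.05, where 15.8% of all genes with an adjusted p in that table did, Rps24 with a log2 fold change of 0.57 and Rps27l with 0.42. Rps27a differed by 0.64 ± 0.27 (adjusted p = 0.111), from 0.617, 1.13 and 1.95 CPM in Ctrl to 1.5, 1.78 and 2.53 in TKO.

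Of the 76 mitochondrial ribosomal protein genes tested in the same comparison, 17 fell and 0 rose, where 5.98% of all genes tested fell and 8.14% rose, and their median was -0.26. The 746 other short genes had a median of -0.042. The difference between these sets was not tested.

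In DKO against Ctrl the median was 0.188 (0.025 over all genes tested) and 68 of 76 lay above 0. Without DKO 1 that median was -0.0097 and 37 of 76 lay above 0. The other genes of at most 1000 bases had a median of 0.168 with DKO 1 included. In MKO against Ctrl the median was -0.142 (-0.000043 over all genes tested), 63 of 76 lay below 0, and short genes outside the family had -0.111. Rpl17, whose protein lines the exit tunnel, had 0.462, 0.969 and 1.34 CPM in Ctrl and 0.162, 0.430 and 0.904 in MKO, a difference of -1.03 ± 0.39 (adjusted p = 0.717) on fewer than 10 counts in most libraries.

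TKO and MKO both received the Myocd guides and differ by genotype. In TKO against MKO, 1 of 76 genes was called, Rpl15, where 13.3% of all genes tested were. The median log2 ratio was 0.230 (-0.00079 over all genes tested), and 68 of 76 lay above 0. By library, the median log2 difference of the family from its mean over all libraries overlapped between the groups. It ran from -0.320 to 0.093 in MKO and from -0.174 to 0.286 in TKO. Small subunit genes had a median of 0.27 (27 of 29 above 0), large subunit genes 0.20 (36 of 40), the paralogs 0.042 (4 of 6), mitochondrial ribosomal protein genes -0.066 and other short genes 0.063. By number of pseudogenes, the medians were 0.202 with 2 or fewer, 0.226 with 3 to 9 and 0.309 with 10 or more.

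Rpl15 encodes a large subunit protein and had the longest pyrimidine run among the starts shown. Its levels were 5.16, 6.96 and 9.19 CPM in MKO, 6.94, 10.4 and 12.2 in TKO, 6.61, 9.08 and 10.2 in Ctrl, and 8.17, 9.26 and 16.2 in DKO. TKO and MKO overlapped, with 5 of 6 TKO libraries above the MKO mean. Rpl15 rose in TKO against MKO by 0.53 ± 0.17 on the log2 scale (adjusted p = 0.0409, edgeR), and the call was lost under 10 of 33 alternatives. Against Ctrl, TKO differed by 0.19 (adjusted p = 0.506).

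The number of calls between TKO and MKO depended on which libraries set the spread. DKO 1 is in neither group, but all 24 libraries share 1 estimate of the spread. Without it, 12 of the 76 genes were called, all higher in TKO, where 22% of all genes were, and the median standard error was 0.163 in place of 0.20. Without both Ctrl 3 and DKO 1 there were 14, all higher, among them Rpl13a, Rpl15, Rpl17, Rpl18, Rpl19, Rpl39, Rpl41, Rplp0 and Rps27l, where 23.4% of all genes were. In the authors' deposited table of this comparison 13 of the 76 had an adjusted p under 0.05, where 20.8% of all genes with an adjusted p in that table did, all higher in TKO, among them Rplp0 with a log2 fold change of 0.23 and Rpl41 with 0.40. With both directions counted together, the numbers called are no larger a share of the 76 than the background of their own fit or table. Those backgrounds hold genes that rose and genes that fell, while the calls of the family were all higher. The share of all genes called higher was not counted in those fits, so like directions cannot be compared. In the fit of 24 libraries the calls of all genes were 796 higher and 843 lower.

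For 3 of these genes the libraries were as follows. Rplp0 had 122, 134 and 137 CPM in MKO and 137, 154 and 165 in TKO, a difference of 0.23 ± 0.16 (adjusted p = 0.391) in the fit of 24 libraries. Rpl41, the shortest ribosomal protein, had 18, 23.5 and 27.5 CPM in MKO and 25.8, 29.8 and 37.1 in TKO, with a difference of 0.40 ± 0.19 (adjusted p = 0.179). Rpl17 had 0.475, 0.767 and 1.65 CPM in TKO and differed from MKO by 1.10 ± 0.37 (adjusted p = 0.0522). In each gene all 6 TKO libraries lay above the MKO mean. The 2 groups overlapped for Rpl41 and Rpl17. For Rplp0 they did not, though the highest MKO and the lowest TKO library both round to 137 CPM.

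In DKO against MKO, 0 of 76 were called, where 0.790% of all genes were, with a median of 0.319 and 72 of 76 above 0. At an unadjusted p under 0.05 there were 26 of 76, all higher in DKO, where 15.3% of all genes passed. Without DKO 1, 0 were called, the median was 0.156 with 62 of 76 above 0, and 6 of 76 had an unadjusted p under 0.05, where 12.5% of all genes did. Other short genes had a median of 0.267 with DKO 1 included. In TKO against DKO, 1 of 76 was called (Rpl3l, lower), where 6.38% of all genes were. That median was -0.089 with 19 of 76 above 0, and 0.108 with 63 of 76 above 0 without DKO 1, so its direction turned, and 0 were then called, where 8.90% of all genes were. For the interaction, 0 of 76 were called, where 0.464% of all genes were, and the median was 0.040 with 43 of 76 above 0. Without DKO 1 again 0 were called, where 1.63% of all genes were, and the median was 0.22 with 65 of 76 above 0, against 0.0333 over all genes tested. At an unadjusted p under 0.05 there were then 11 of 76, all above 0, where 17.7% of all genes passed, and 1 of 76 with DKO 1 included, where 12.4% did.

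**Figure D4:**
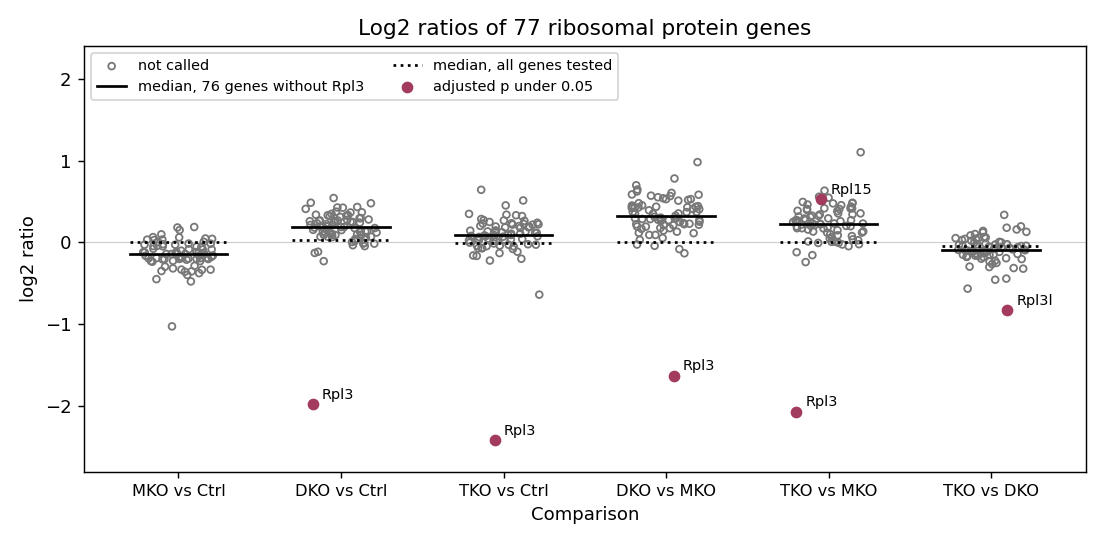
Log2 ratio of each of the 77 genes in the 6 pairs of groups, with 1 point per gene, filled where the adjusted p was under 0.05. Solid lines mark the median of 76 genes without Rpl3 (-0.142 in MKO and 0.092 in TKO against Ctrl, 0.230 in TKO against MKO), dotted lines that of all genes tested.

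The machinery that supplies and uses ribosomes was read from lists by role, in TKO against Ctrl. The counts per list stand against 8.14% of all genes tested that rose and 5.98% that fell in this comparison. Of 10 elongation factors, 0 were called, with a median log2 ratio of -0.036. Of 29 initiation factors, 1 rose, Eif1a, which helps the small subunit scan the mRNA, by 0.32 ± 0.10 (adjusted p = 0.0256, edgeR). Of 50 genes of ribosome assembly, 1 rose, Sbds, which acts in the last steps of large subunit maturation, by 0.22 ± 0.07 (adjusted p = 0.0459). The 3 ribosomal proteins outside the name rule, Fau and Gnb2l1 among them, were not called and had a median of 0.11.

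Of 30 genes for RNA polymerases I and III and their factors, 3 rose and 0 fell, where 8.14% of all genes tested rose and 5.98% fell. Brf1, a subunit of the initiation factor of RNA polymerase III, had 35.8, 41.9 and 53.8 CPM in Ctrl and 48.4, 57.1 and 73.4 in TKO, and rose by 0.42 ± 0.11 (adjusted p = 0.00812, edgeR). Ubtf, which binds ribosomal DNA, rose by 0.29 ± 0.09 (adjusted p = 0.0238), and Polr3gl, a subunit of RNA polymerase III, by 0.28 ± 0.09 (adjusted p = 0.0318). The median of the list was -0.0066.

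Of 31 genes of mTORC1 and Myc control, 2 rose and 2 fell. Larp1b, a relative of Larp1, had 51.9, 59.6 and 70.6 CPM in Ctrl, 45.6, 53.5 and 60.8 in MKO, 40.7, 47.6 and 83.1 in DKO, and 27.7, 34.0 and 37.4 in TKO. Every TKO library lay below every other library. Larp1b fell by 0.87 ± 0.13 on the log2 scale in TKO against Ctrl (adjusted p = 4.86e-05, edgeR) and by 0.70 ± 0.13 against MKO (adjusted p = 0.000797).

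Larp1, the protein that binds oligopyrimidine tracts, had 57.6, 66.3 and 95.2 CPM in Ctrl, 69.8, 80.4 and 90.4 in MKO, 57.4, 80.8 and 88.7 in DKO, and 36.1, 57.8 and 65.3 in TKO. It fell by 0.42 ± 0.14 in TKO against Ctrl (adjusted p = 0.0475, edgeR), a call lost under 21 of 33 alternatives, and by 0.60 ± 0.14 against MKO (adjusted p = 0.00552). Ctrl and TKO overlapped, while MKO and TKO did not.

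Myc, a transcription factor that drives growth and ribosome genes, had 3.29, 4.30 and 7.52 CPM in Ctrl, 4.84, 5.59 and 8.05 in MKO, 2.54, 9.09 and 13 in DKO, and 7.74, 11.1 and 12.1 in TKO. Every TKO library lay above every Ctrl library, and Myc rose by 1.15 ± 0.26 (adjusted p = 0.00320, edgeR). Mlx, a transcription factor of the extended Myc network, rose by 0.32 ± 0.09 (adjusted p = 0.0219).

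Of 17 other mRNAs with an oligopyrimidine tract, Naca, part of the complex that meets the nascent chain at the exit tunnel, was the only one called. It had 337, 394 and 446 CPM in Ctrl and 210, 301 and 331 in TKO, and fell by 0.46 ± 0.10 (adjusted p = 0.00240, edgeR). Of 17 genes of ribosomal stress and turnover, Cdkn1a, a cyclin-dependent kinase inhibitor induced by p53, rose by 1.19 ± 0.28 (adjusted p = 0.00432), and Gtpbp1, a GTPase linked to ribosome rescue, fell by 0.21 ± 0.07 (adjusted p = 0.0306). The 8 lists together hold 187 genes tested. In TKO 12 were called, all named above, where 14.1% of all genes tested were. By edgeR, 0 of them were called in MKO and 0 in DKO against Ctrl, with 17 and 9 at an unadjusted p under 0.05, where 6.20% and 10.5% of all genes tested passed.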

How the data were processed

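The deposited table holds read counts per gene, whole numbers not normalized, for 24 libraries and 23337 genes. Per the submitters' processing notes, STAR, featureCounts and DESeq2 were used with the mouse build mm10; versions, strand setting and the handling of reads that match several places are not given in the sources used here. Per the labels' protocols, RNA was amplified with SMART-Seq and made into libraries with Nextera XT, which does not mark strand. In 6 further files the authors gave their own comparisons of pairs of groups, as log2 fold changes and p-values per the file headers. These are quoted only where named.

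The test was edgeR 4.0.16 under R 4.3.3 (quasi-likelihood, two-sided, TMM scaling, filterByExpr with a minimum count of 10, all 24 libraries in 1 fit with a coefficient per group). Benjamini-Hochberg adjustment ran over the 12281 genes tested in each of 7 comparisons, with calls at 0.05. Adjusted p-values come from this fit unless another is named. CPM are counts scaled to the effective library size, and CPM per kb divides by the exonic length in the table. Intervals are the log2 ratio with its standard error times a normal quantile. The 60 pairs of libraries within groups were checked for repeated deposits: the chi-square per gene was 6.51 or more, so none agreed within sampling noise. The edgeR script was tested on simulated data.

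Words of 50 bases came from GENCODE M21 transcripts. The alternatives were other scalings (RLE, TMM without the family, library totals), no low-count filter, DESeq2 1.42.0, a fit of only the 2 groups, a replicate block, 22 libraries (without Ctrl 3 and DKO 1), a gene length trend removed and each library left out.

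The genes named are Rpl3, Rpl3l, the paralogs and their parents, up to 8 called genes per direction and comparison, the 5 highest and lowest per length in Ctrl, and up to 4 genes per pathway list with the smallest adjusted p in TKO against Ctrl. Rps24, Rps27a, Rpl17, Rplp0, Rpl41, Rps19bp1, Rpl8, Larp1 and Larp1b in other comparisons were added after their values were seen. The members, gene lists and tests were chosen with earlier results of these data known. Results for some genes are not reported here.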

Additional observations from a re-analysis of the deposited data

Results flagged for a closer look

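In groups of 6 libraries, the gap of the highest or lowest library to its nearest neighbour was set against the whole range of the group. This was done for the family's share of counts, for 19 of its genes described above (Rpl3, Rpl15, Rps24, Rpl41, the 6 paralogs and the genes at both ends of the order of levels) and for 5 pathway genes (Larp1b, Larp1, Myc, Brf1 and Naca). A ratio above Dixon's 95% critical value marks a library that lies far from the others, and chance alone gives about 1 such mark in 20 groups. Of 100 groups tested, 15 passed, and in 13 of them DKO 1 was the highest library.

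Among genes of the small subunit, Rps24 had 13.98 CPM in DKO 1 where the next DKO library had 7.62 (ratio 0.813), and Rps27a had 3.20 against 1.80 (ratio 0.740). In the large subunit and its stalk, Rpl8 had 180.2 CPM against 89.8 (ratio 0.780), Rpl15 16.2 against 10.04 (ratio 0.767), Rplp1 75.7 against 46.4 (ratio 0.732), Rplp0 329.6 against 184.7 (ratio 0.714), Rpl4 280.0 against 185.1 (ratio 0.688) and Rpl41 57.9 against 33.6 (ratio 0.662). Of the paralogs, Rpl36al had 37.6 CPM against 26.6 (ratio 0.667), Rps4y2 117 against 74.8 (ratio 0.646), Rps27l 93.3 against 57.2 (ratio 0.629) and Rpl22l1 8.79 against 5.85 (ratio 0.629). Larp1b had 83.1 CPM in DKO 1 against 51.4 in the next DKO library (ratio 0.748).

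The other marks were Rpl7l1, the paralog of Rpl7, with 121 CPM in MKO 6 against 106 in the next MKO library (ratio 0.659), and Myc, with 7.52 CPM in Ctrl 1 against 4.48 in the next Ctrl library (ratio 0.719). The interaction passed the threshold for 0 of the 77 genes.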

How the results depend on the processing

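Rpl3 kept its calls in DKO and TKO against Ctrl and against MKO under all 33 alternatives, and the count of other genes called in MKO and DKO against Ctrl and in DKO against MKO was 0 under all of them. For the interaction it was 0 under the 32 that can give it, since a fit of only 2 groups cannot. In TKO against Ctrl the count was 2 with library totals, 1 with 22 libraries, 5 with the length trend removed, where 18.1%, 21.3% and 16.9% of all genes were called, and 0 to 1 when 1 library was left out (1 without DKO 1, Rpl3l). In TKO against DKO it was 0 without the low-count filter, with only the 2 groups, with 22 libraries and with the length trend removed, and 0 to 1 when 1 library was left out. In TKO against MKO it was 3 with library totals, 0 without the filter, 9 with only the 2 groups, 14 with 22 libraries and 5 with the length trend removed, where 13.9%, 8.14%, 21.6%, 23.4% and 17.6% of all genes were called, and 0 to 12 when 1 library was left out (12 without DKO 1). Library totals moved the median of all genes by 0.111 in DKO and 0.116 in TKO against Ctrl. The TKO against DKO difference of Rpl3l was -0.81 without the filter, -0.84 with only the 2 groups, -0.62 with 22 libraries and -0.70 with the length trend removed, none of them called, and -0.97 to -0.63 when 1 library was left out. Its difference in TKO against Ctrl ran from -0.78 to -0.49 with 1 library left out. Rpl15 in TKO against MKO ran from 0.47 to 0.62 and lost its call without MKO 2, 3, 4 or 6, without TKO 1, 2, 3, 5 or 6, and without the filter. Small differences changed sign: Rps4y2, TKO vs Ctrl, to 0.050 with library totals, Rpl7l1, TKO vs Ctrl, to -0.000877 without Ctrl 1, -0.0212 without Ctrl 5 and -0.00651 without TKO 1 (range with 1 library left out -0.0212 to 0.124), and Rpl22l1, TKO vs Ctrl, to -0.0244 without Ctrl 5 and -0.0192 without TKO 1 (range -0.0244 to 0.346). Of the pathway genes in TKO against Ctrl, Larp1b, Myc, Brf1, Naca and Cdkn1a kept their calls under all 33 alternatives, while Mlx lost it in 3, Eif1a in 5, Ubtf in 6, Polr3gl in 9, Gtpbp1 in 11, Sbds in 20 and Larp1 in 21. With a denominator without the 50 most abundant genes, the share of counts was 0.218% in Ctrl and 0.203% in MKO, and 0.247% in DKO and 0.226% in TKO. Without Rpl3 and the paralogs it was 0.118% in Ctrl and 0.113% in MKO, and 0.142% in DKO and 0.135% in TKO. With the replicate number as a block (replicate block) the counts of the family called were as in the fit without it, and all genes called went from 1639 to 1834 in TKO against MKO and from 57 to 175 for the interaction. Whether the numbers pair the libraries was not settled. Of 36 pairs of groups and numbers, 14 had deviations correlated above 0.1, with correlations from -0.218 to 0.642. Of the 24 libraries, 6 correlated best with their own number. The cause of each change was not tested. Depth limits single genes with few counts, such as Rpl17 and Rpl5, more than the sets.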
